A study of Homo sapiens with 6 samples.

Results

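OAS, MX and IFIT genes encode antiviral effectors, proteins that act on viral RNA or viral particles inside the cell and that interferons switch on. The 10 genes described here, OAS1, OAS2, OAS3, OASL, MX1, MX2, IFIT1, IFIT2, IFIT3 and IFIT5, were taken by name from a table of 59962 genes, and each name matched a single row. The set was chosen with earlier results of these data known, so its counts beside those of all genes are a description. Transcripts were measured by RNA-seq of bulk RNA from CFPAC-1, an established human line of pancreatic ductal adenocarcinoma. The 6 libraries form 3 groups of 2: cells labelled as a SULF2 knockdown with the guide RNA sgRNA1, cells labelled as one with the guide RNA sgRNA3, and control cells labelled as a knockdown of LACZ, a bacterial gene. SULF2 is a secreted enzyme that trims sulfate from heparan sulfate chains around the cell. All groups were extracted with TRIzol, and the labels name no interferon or virus in any of them. Beyond the word knockdown, the labels do not say whether the guides cut or repress the gene, whether a line is a clone or a pool, or whether each library is a culture of its own, so p-values measure only the spread between these libraries, which may be technical.

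Interferons act through receptors whose kinases, JAK1 and TYK2, activate transcription factors such as STAT2. Together with IRF9, STAT2 is part of a complex that binds the interferon-stimulated response element in the promoters of many target genes, the members of the OAS, MX and IFIT families among them. OAS enzymes sense double-stranded RNA and make short oligoadenylates that serve as an antiviral signal, MX proteins are large GTPases that trap viral nucleocapsids, and IFIT proteins bind foreign RNA or components of translation.

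The promoters are shown because most of the 10 transcripts rose with sgRNA3, as described below, while with sgRNA1 only 1 passed. RefSeq windows (GRCh38.p14) from 250 bases before to 50 bases after an annotated start were matched for 6 of the 10 genes: OAS1, OAS3, MX1, IFIT1, IFIT3 and IFIT5; OAS2, OASL, MX2 and IFIT2 were not matched. They were searched on both strands for the core of the response element: TTTC, any 2 bases and TTTC again, which reads GAAA, any 2 bases and GAAA on the other strand. The match is the same 10 bases whichever strand it is read from, and matches may overlap. Of these 6 genes, 5 held the motif in at least 1 of their windows and OAS1 did not. So did 26 of 56 genes with a window in the list of other interferon genes described below (46.4%). The share was 4.38% of all 27305 genes with a window. By window, 7 of the 9 windows of the 6 genes held the motif, against 3.57% of all 35116 windows. The stretches below are upstream of both the RefSeq start and the GENCODE 29 gene start, are written in the direction of transcription (all on the plus strand), and carry the motif in capitals. They are OAS3 at chr12:112938321-112938350, IFIT1 at chr10:89392497-89392539, IFIT3 at chr10:89327831-89327893 and IFIT5 at chr10:89414513-89414567.
OAS3: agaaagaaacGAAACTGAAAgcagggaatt
IFIT1: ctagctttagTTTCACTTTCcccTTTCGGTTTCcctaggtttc
IFIT3: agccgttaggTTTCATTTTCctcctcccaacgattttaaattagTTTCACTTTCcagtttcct
IFIT5: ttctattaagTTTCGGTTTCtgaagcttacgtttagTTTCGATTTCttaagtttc
IFIT1, IFIT3 and IFIT5 each show a pair of motifs in these stretches, in the same orientation, and OAS3 shows 1 in the opposite orientation. Further matches began 12 bases before the start of OAS3, 4 bases before the start of IFIT5, and 94 and 51 bases before a second start of IFIT3. In MX1 the first of 3 annotated starts has a match at base 12 of the transcribed part, and the third has one 196 bases upstream. A match is a description of the letters in the window and does not show that the complex binds there.

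SULF2 itself was at 8.98 and 12.81 TPM with sgRNA1 and 10.07 and 9.24 TPM with sgRNA3, against 25.69 and 22.52 TPM in LACZ (TPM, the transcript level scaled to gene length and to the same total in each library). Its log2 changes of -1.09 and -1.23 passed (limma adjusted p = 0.0338 and 0.0215), but leaving out any 1 of the 6 libraries ended the sgRNA1 call (0.0544 to 0.172), and the sgRNA3 call without either sgRNA3 or either LACZ library (highest 0.117). TPM keeps no depth, so the depth of the libraries is unknown. The libraries held 15563 to 15923 genes at 1 TPM or more, and mitochondrial transcripts took 10.3% to 11.2% of each library. Of 8 ductal epithelial markers, 7 were above 1 TPM in every library, with summed levels of 7978 to 8160 TPM with sgRNA1, 8585 to 8634 with sgRNA3 and 8996 to 9165 in LACZ, while CFTR stayed at 0.07 to 0.38 TPM. The leukocyte markers summed to 10.8 to 12.4 TPM with sgRNA1, 6.87 to 7.40 with sgRNA3 and 8.86 to 15.5 in LACZ. Only CD14 and LYZ, both markers of myeloid cells, were above 1 TPM in every library. CD14 was at 4.23 and 6.36 TPM with sgRNA1 and 2.26 and 2.52 TPM with sgRNA3, against 3.61 and 8.94 TPM in LACZ, and did not pass (log2 change -0.999 with sgRNA3, limma adjusted p = 0.181). LYZ was between 4.35 and 6.42 TPM and did not pass either. PTPRC, which marks leukocytes in general, reached at most 0.10 TPM, and CLEC4C, a marker of the plasmacytoid dendritic cells that make interferon, was listed at 0 in all 6. The fibroblast markers summed to 56.9 to 58.4 TPM with sgRNA1, 35.8 to 39.8 with sgRNA3 and 75.6 to 76.2 in LACZ, nearly all of it COL1A1, with COL3A1, DCN and PDGFRA at 0.16 TPM or less. COL1A1 itself fell by 0.39 on the log2 scale with sgRNA1 (limma adjusted p = 0.0403) and by 0.99 with sgRNA3 (adjusted p = 0.00361). The part of these marker differences in the results that follow was not tested.

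With sgRNA3 the antiviral effectors were higher as a group, and with sgRNA1 a single one passed the test. All 10 were above 1 TPM in every library (from 3.04 to 313 TPM), so none entered the test through its higher group. Against LACZ, 7 of 10 rose with sgRNA3 and 0 fell, at a median log2 change of 0.88, whereas 3.84% of the 16610 genes tested rose and their median was -0.05. With sgRNA1, 1 of 10 rose and 0 fell, at a median of 0.20, against 1.69% of all genes that rose and a median of -0.07. Directly between the guides, 5 of 10 were higher with sgRNA3 and 0 lower, at a median of 0.72, against 0.391% of all genes and a median of 0.04. In all 10 genes both sgRNA3 libraries lay above all 4 other libraries, a pattern that 13.3% of all genes tested share. Taken pair by pair, both sgRNA3 libraries lay above both LACZ libraries in 10 of 10 genes, against 24.8% of all genes (34.3% lay below), and above both sgRNA1 libraries in 10 of 10, against 28.2%. Both sgRNA1 libraries lay above both LACZ libraries in 6 of 10 genes, against 19.8% of all genes, and below them in 2 of 10, against 35.2%. The comparisons with LACZ share the 2 LACZ libraries, so they are not independent of each other. In bulk RNA, fewer cells carrying a transcript and less transcript per cell cannot be told apart. Changes are on the log2(TPM + 1) scale and understate those of low genes, and a gene passes at an adjusted p under 0.05. An unadjusted limma p under 0.05 was far more common. Of the 16610 genes tested, 4085 had one with sgRNA1 against LACZ, 4646 with sgRNA3 against LACZ and 2550 between the guides. Small counts at that level, given below, therefore say little.

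**Figure D1:**
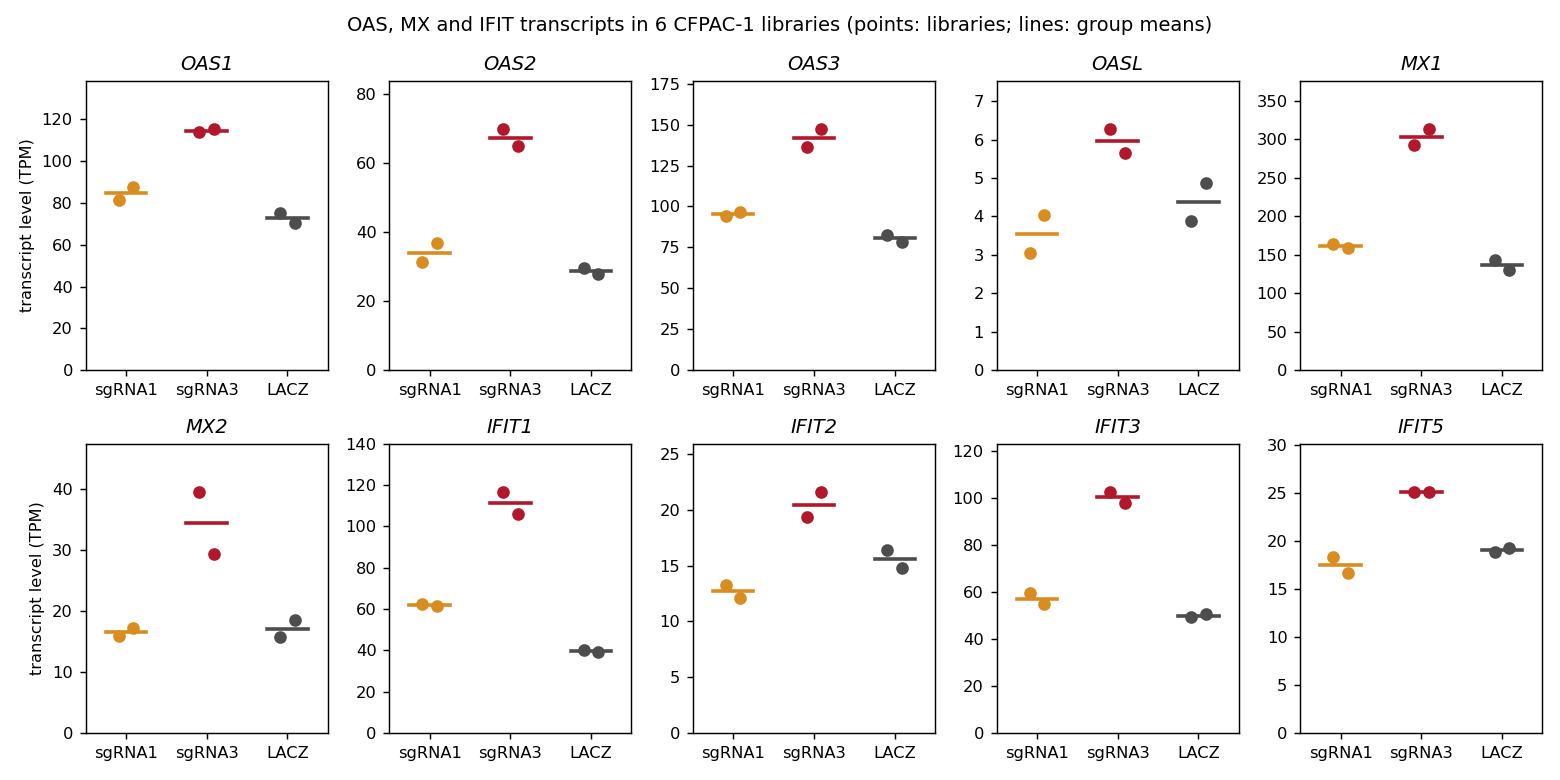
Transcript level (TPM, axes from 0) of each of the 10 genes in the sgRNA1, sgRNA3 and LACZ groups; points are libraries and lines group means of 2 libraries. In every panel both sgRNA3 points lie above the other 4, while sgRNA1 lies above LACZ in 6 panels, below it in IFIT2 and IFIT5 and overlaps it in OASL and MX2.

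Summed over the 10 genes, the level was 543 and 545 TPM with sgRNA1 and 922 and 926 TPM with sgRNA3, against 475 and 454 TPM in LACZ. The sum with sgRNA3 was thus 1.99 times that in LACZ and the sum with sgRNA1 1.17 times. By family, the sgRNA3 sum was 1.77 times the LACZ sum for OAS, 2.19 times for MX and 2.07 times for IFIT, and the sgRNA1 sum was 1.17, 1.15 and 1.2 times. The 2 libraries of a group lay close together in these sums, and the 3 groups did not overlap in any family.

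**Figure D2:**
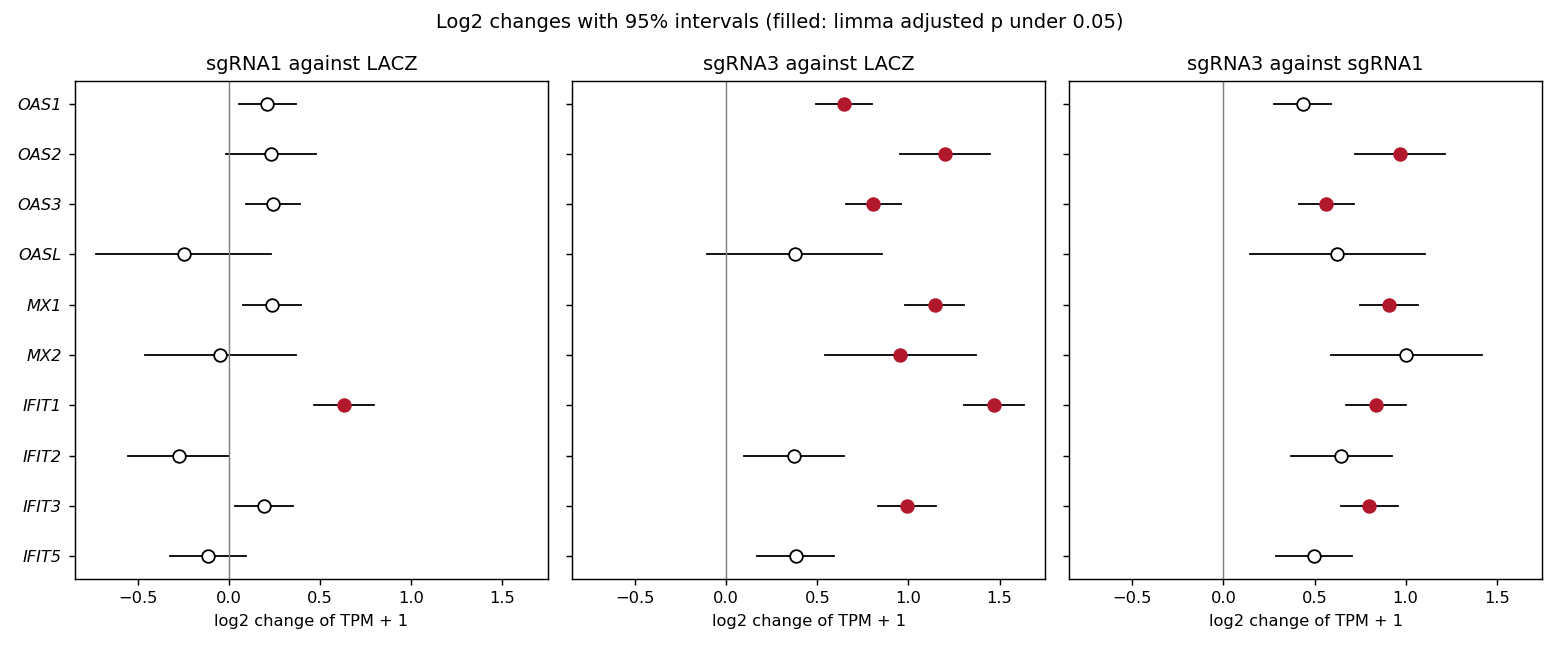
Log2 change of TPM + 1 (points) with its 95% interval from limma (lines) for each gene for each guide against LACZ and for sgRNA3 against sgRNA1; filled points passed at an adjusted p under 0.05. With sgRNA1 only IFIT1 is filled, with sgRNA3 7 genes are, and between the guides OAS2, OAS3, MX1, IFIT1 and IFIT3 are.

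OAS transcripts rose with sgRNA3 in 3 of 4 genes, and 0 of 4 passed with sgRNA1, where 2 had an unadjusted limma p under 0.05. OAS1, OAS3 and OAS2 lie side by side in that order on chromosome 12 (GRCh38, GENCODE 29), OAS1 at 112906777 to 112933222, OAS3 at 112938352 to 112973249 and OAS2 at 112978395 to 113011723, with gaps of 5.1 kb. OASL lies apart on the same chromosome, at 121019111 to 121039242 on the minus strand.
OAS1, the smallest of the synthases, was at 81.41 and 87.69 TPM with sgRNA1 and 113.93 and 115.29 TPM with sgRNA3, against 75.36 and 70.43 TPM in LACZ. The sgRNA3 libraries stood clear of the others, and those of sgRNA1 lay just above LACZ. Its log2 change was 0.65 with sgRNA3 (SE 0.061, limma adjusted p = 0.00827) and 0.21 with sgRNA1 (adjusted p = 0.112). The sgRNA3 call was lost without sgRNA3 replicate 1, sgRNA3 replicate 2 or LACZ replicate 2 (adjusted p = 0.0616, 0.0663 and 0.0598).
OAS2, which makes longer oligoadenylates, changed most in the family. It was at 31.28 and 36.73 TPM with sgRNA1 and 69.82 and 64.90 TPM with sgRNA3, against 29.67 and 27.80 TPM in LACZ. Its level with sgRNA3 was 2.34 times that in LACZ, with a log2 change of 1.20 (SE 0.098, limma adjusted p = 0.00536), a call lost only without LACZ replicate 2 (0.0518). With sgRNA1 the log2 change was 0.23 (adjusted p = 0.227).
OAS3, the largest synthase, was at 94.23 and 96.63 TPM with sgRNA1 and 136.29 and 147.16 TPM with sgRNA3, against 82.81 and 78.28 TPM in LACZ. The order sgRNA3, sgRNA1, LACZ held without overlap. The log2 change was 0.81 with sgRNA3 (limma adjusted p = 0.00399), which passed with each library left out, and 0.24 with sgRNA1 (adjusted p = 0.0812).
OASL, a synthase-like protein without enzyme activity that aids the RNA sensor RIG-I, was the lowest of the 10. It was at 3.04 and 4.04 TPM with sgRNA1 and 6.27 and 5.66 TPM with sgRNA3, against 3.89 and 4.88 TPM in LACZ. Only the sgRNA3 libraries were separate, and the change did not pass with sgRNA3 (log2 change 0.38, 95% interval -0.10 to 0.86, limma adjusted p = 0.271) or sgRNA1 (-0.25, interval -0.73 to 0.23, adjusted p = 0.481).

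Both MX genes rose with sgRNA3, to about the same multiple of LACZ, and neither passed with sgRNA1, where MX1 had an unadjusted limma p under 0.05. They are neighbours on chromosome 21, MX2 at 41361943 to 41409390 and MX1 at 41420304 to 41459214, 10.9 kb apart.
MX1, a cytoplasmic GTPase known to block influenza viruses, had the highest level of the 10 genes in every library. It was at 163.59 and 158.10 TPM with sgRNA1 and 292.72 and 313.00 TPM with sgRNA3, against 143.10 and 130.08 TPM in LACZ. The mean with sgRNA3 was 303 ± 14.3 TPM, against 137 ± 9.21 TPM in LACZ (SD, n = 2 each), 2.22 times as high. The log2 change was 1.14 with sgRNA3 (SE 0.064, limma adjusted p = 0.00197), which passed with each library left out, and 0.24 with sgRNA1 (adjusted p = 0.0979).
MX2, which acts at the nuclear envelope and restricts HIV, was at 15.84 and 17.15 TPM with sgRNA1 and 39.53 and 29.33 TPM with sgRNA3, against 15.72 and 18.53 TPM in LACZ. The sgRNA3 libraries were both higher but far apart from each other, and sgRNA1 overlapped LACZ. Its log2 change with sgRNA3 was 0.96 (SE 0.165, limma adjusted p = 0.0323), and leaving out any library ended this call: 0.110 and 0.0602 without sgRNA3 replicates 1 and 2, 0.144 and 0.111 without LACZ replicates 1 and 2, and 0.0689 and 0.0687 without sgRNA1 replicates 1 and 2. It was also lost with no filter on low genes, no variance trend, only the groups compared and a replicate block (0.0640 to 0.0748). The sgRNA1 libraries do not enter this change, which stayed at 0.96 without either of them. Their losses thus came from the test and not from the levels compared. With sgRNA1 the log2 change was -0.05 (95% interval -0.46 to 0.37), and its sign turned under other scalings (0.03 and 0.07).

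IFIT transcripts were split: IFIT1 and IFIT3 rose with sgRNA3, while IFIT2 and IFIT5 did not pass with either guide. They lie on chromosome 10 in the order IFIT2 (89283694 to 89309276), IFIT3 (89327894 to 89340971), IFIT1 (89392546 to 89406486) and IFIT5 (89414586 to 89421001), all on the plus strand.
IFIT1, which binds viral RNA that lacks the methylated cap of host messages, had the largest change of the 10 and the only one that passed with sgRNA1. It was at 62.24 and 61.31 TPM with sgRNA1 and 116.69 and 105.86 TPM with sgRNA3, against 39.95 and 39.04 TPM in LACZ. The 3 groups were well apart. Its mean was 61.8 ± 0.658 TPM with sgRNA1 and 111 ± 7.66 TPM with sgRNA3, against 39.5 ± 0.643 TPM in LACZ (SD, n = 2 each), or 1.56 and 2.82 times LACZ. The log2 change was 1.47 with sgRNA3 (SE 0.065, limma adjusted p = 0.00128), which passed with each library left out. With sgRNA1 it was 0.63 (adjusted p = 0.0109), lost without sgRNA1 replicates 1 and 2 (0.0626 and 0.0724) and without LACZ replicates 1 and 2 (0.0821 and 0.0818).
IFIT3, which binds and steadies IFIT1, was at 59.44 and 54.90 TPM with sgRNA1 and 102.57 and 97.92 TPM with sgRNA3, against 49.38 and 50.42 TPM in LACZ. The sgRNA3 level was 2.01 times that of LACZ. The log2 change was 0.99 with sgRNA3 (SE 0.062, limma adjusted p = 0.00293), which passed with each library left out, and 0.19 with sgRNA1 (adjusted p = 0.140).
IFIT2, a partner of IFIT3 that binds AU-rich RNA, was at 13.27 and 12.11 TPM with sgRNA1 and 19.32 and 21.60 TPM with sgRNA3, against 16.40 and 14.77 TPM in LACZ. The groups did not overlap, and sgRNA1 was the lowest of them. Neither change passed: the log2 change was -0.28 with sgRNA1 (95% interval -0.55 to -0.001, limma adjusted p = 0.202) and 0.37 with sgRNA3 (interval 0.10 to 0.65, adjusted p = 0.0984).
IFIT5, an RNA-binding relative that does not need IFIT3, was at 18.34 and 16.69 TPM with sgRNA1 and 25.10 and 25.09 TPM with sgRNA3, against 18.80 and 19.29 TPM in LACZ. Here too sgRNA1 lay below LACZ and sgRNA3 above it. The log2 change was 0.38 with sgRNA3 (95% interval 0.17 to 0.59, limma adjusted p = 0.0530), which passed under median-of-ratios scaling (0.0264), quantile normalization (0.0301) and a stricter filter (0.0360). With sgRNA1 it was -0.12 (interval -0.33 to 0.09, adjusted p = 0.454).

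The guides were also compared with each other. OAS2, OAS3, MX1, IFIT1 and IFIT3 were higher with sgRNA3 than with sgRNA1, with log2 differences of 0.97, 0.57, 0.91, 0.84 and 0.80 (limma adjusted p = 0.0359, 0.0393, 0.0174, 0.0189 and 0.0189). The ratio of the mean levels was between 1.49 (OAS3) and 1.98 (OAS2). MX2 had the largest difference, 1.004, but its interval was wide (0.59 to 1.42) and it did not pass (adjusted p = 0.0957). OAS1 (0.44), OASL (0.63), IFIT2 (0.65) and IFIT5 (0.50) did not pass either, though each interval lay above 0. These calls are fragile: leaving out any of sgRNA1 replicates 1 and 2, sgRNA3 replicates 1 and 2 and LACZ replicates 1 and 2 left 0 of 10 past the threshold, where 9 or 10 had an unadjusted limma p under 0.05. The same 0 of 10 resulted with no filter, no variance trend, only the groups compared and a replicate block. Over all genes tested, the calls between the guides fell from 96 to 0, 12, 2 and 0 under these settings, in that order. They also fell with any library left out, so the losses are not particular to the 10 genes. The LACZ libraries do not enter this comparison. Without either of them the log2 differences stayed at 0.97, 0.57, 0.91, 0.84 and 0.80, so those losses came from the test and not from the levels. For SULF2 the log2 difference between the guides was -0.14 (adjusted p = 0.754).

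**Figure D3:**
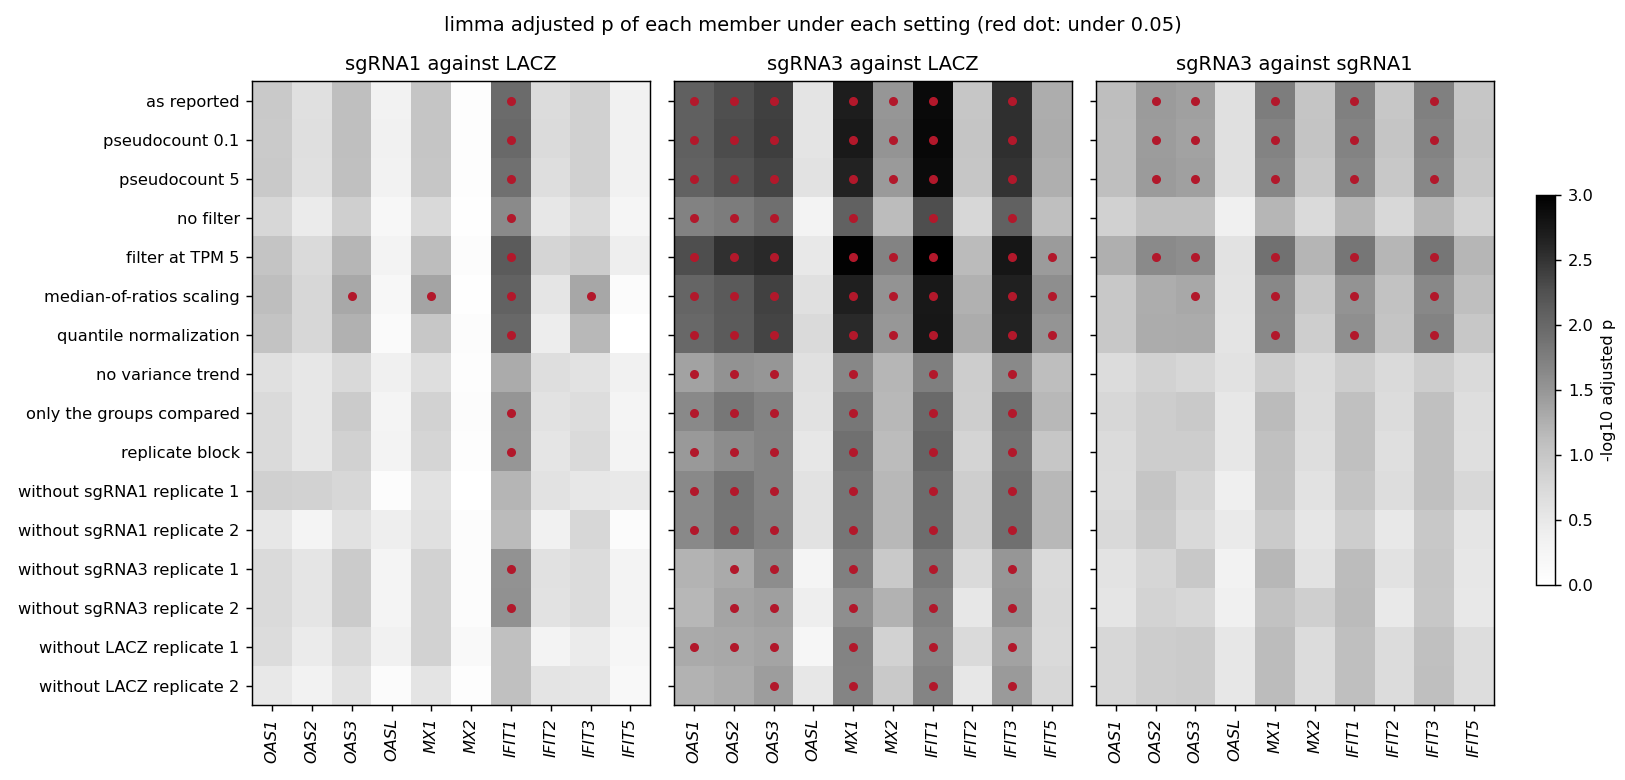
Each cell gives the limma adjusted p (grey scale, -log10) of a gene (columns) under the reported and 15 alternative settings (rows), for the 3 comparisons; red dots mark an adjusted p under 0.05. For sgRNA3 against LACZ, OAS3, MX1, IFIT1 and IFIT3 carry a dot in every row, while between the guides dots are absent from 10 of the alternative rows.

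Levels per length ranked the genes in much the same order in all groups. With sgRNA3 the order of mean levels was MX1 (303 TPM), OAS3 (142), OAS1 (115), IFIT1 (111), IFIT3 (100.2), OAS2 (67.4), MX2 (34.4), IFIT5 (25.1), IFIT2 (20.5) and OASL (5.96), and the libraries of OAS1 and IFIT1 overlapped. In LACZ, IFIT3 (49.9 TPM) stood above IFIT1 (39.5) and IFIT5 (19.0) above MX2 (17.1), and the libraries of MX2 and IFIT2 (15.6) overlapped. With sgRNA1 IFIT1 (61.8 TPM) stood above IFIT3 (57.2), as with sgRNA3, and IFIT5 (17.5) overlapped MX2 (16.5). Elsewhere neighbours in the order did not overlap.
The make-up of the IFIT and OAS families differed between the groups. IFIT1 made up 40.6% and 42.3% of the IFIT sum with sgRNA1 and 44.3% and 42.3% with sgRNA3, against 32.1% and 31.6% in LACZ. OAS2 made up 14.9% and 16.3% of the OAS sum with sgRNA1 and 21.4% and 19.5% with sgRNA3, against 15.5% and 15.3% in LACZ, so that only the sgRNA3 libraries stood apart. OAS1 made up 38.8% and 39.0% with sgRNA1 and 34.9% and 34.6% with sgRNA3, against 39.3% and 38.8% in LACZ. The shares of IFIT2 and IFIT5 were lower with both guides. IFIT2 made up 8.66% and 8.35% of the IFIT sum with sgRNA1 and 7.33% and 8.62% with sgRNA3, against 13.2% and 11.96% in LACZ. IFIT5 made up 11.96% and 11.5% with sgRNA1 and 9.52% and 10.02% with sgRNA3, against 15.1% and 15.6% in LACZ. IFIT3 held 37.9% to 40.8% of the IFIT sum in all libraries.

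Genes around the loci were described for comparison. Within 200 kb of the 4 loci there were 21 other protein-coding genes, of which 13 were expressed enough to test. With sgRNA3, 0 of 13 rose and 1 fell, IQCD (9.71 and 9.64 TPM with sgRNA3, against 14.03 and 13.97 TPM in LACZ; limma adjusted p = 0.0444, and 0.0682 to 0.163 with any library left out), and their median log2 change was -0.18. With sgRNA1, 0 of 13 passed in either direction, at a median of -0.04. An unadjusted limma p under 0.05 was met by 3 of these 13, and by 4085 of all 16610 genes tested. Of all genes tested, 3.84% rose and 5.25% fell with sgRNA3, and 1.69% and 4.31% with sgRNA1. Counts among 13 genes therefore say little. TMPRSS2, a membrane protease next to MX1, was at 37.08 and 37.74 TPM with sgRNA3, against 43.26 and 41.50 TPM in LACZ (adjusted p = 0.229). IFIT1B, which lies between IFIT3 and IFIT1, reached at most 0.11 TPM. LIPA, a lysosomal lipase on the opposite strand, has an annotated span that runs over IFIT1, IFIT2 and IFIT3. It was at 97.53 and 92.83 TPM with sgRNA3, against 86.41 and 83.45 TPM in LACZ (log2 change 0.16, adjusted p = 0.112). The sources used here do not say whether the counting used strand, so reads of these genes and LIPA may not be told apart.

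**Figure D4:**
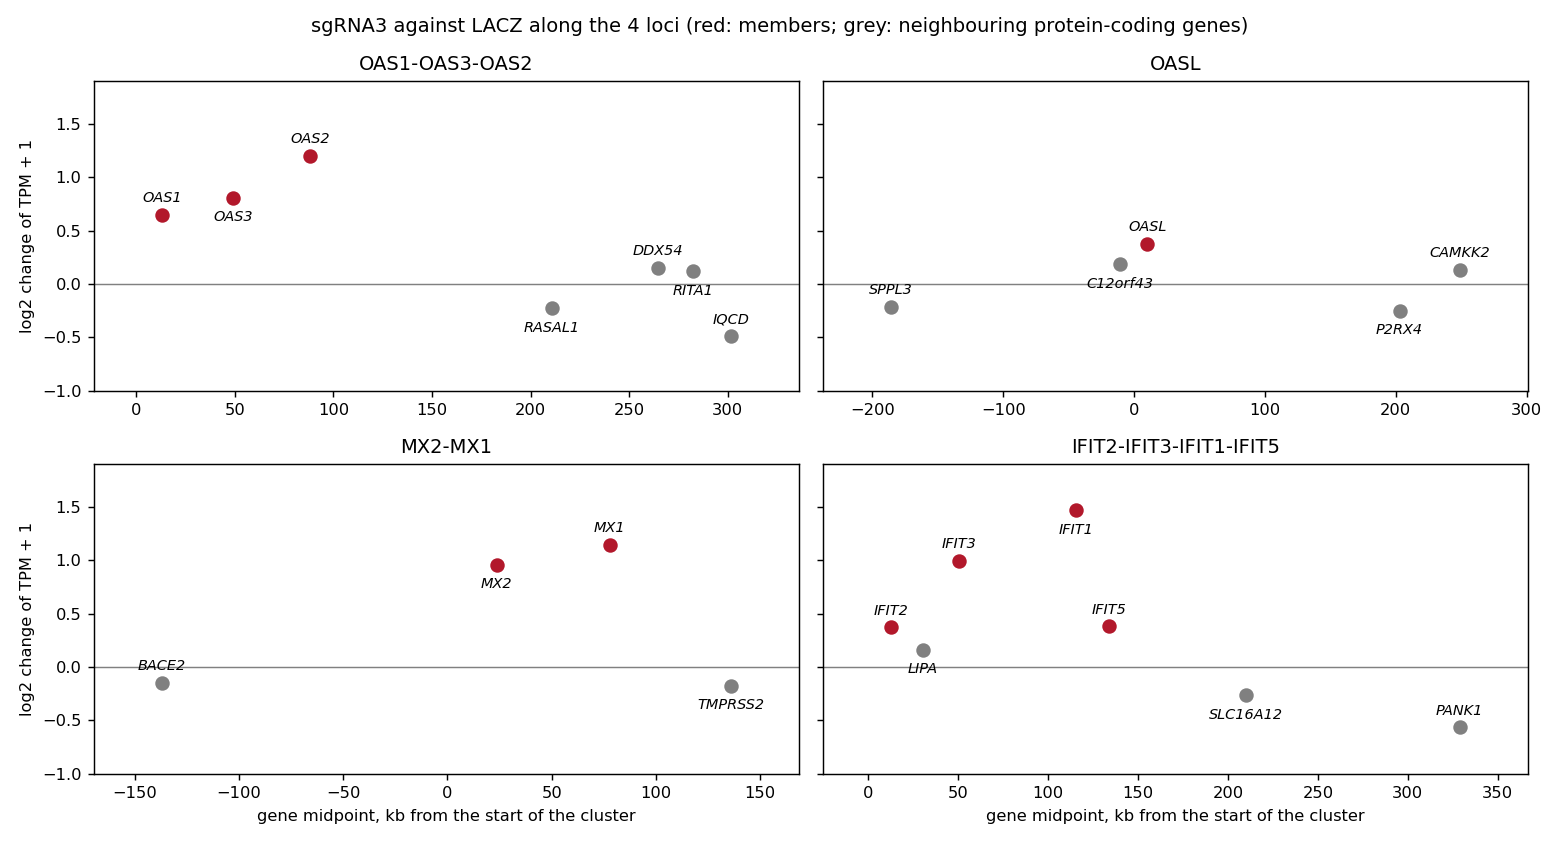
Log2 change of TPM + 1 in sgRNA3 against LACZ for tested protein-coding genes, by the distance of the gene's midpoint from the start of each locus (kb); red points are the 10 genes and grey points their neighbours. All red points are above 0 (0.37 to 1.47), and the grey points lie between -0.57 and 0.18.

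The interferon pathway was described from a list of 68 other interferon genes grouped by role, of which 61 could be tested. It holds genes that act in the pathway and also 32 other genes that interferons induce. Against LACZ, 26 of 61 rose and 3 fell with sgRNA3, at a median log2 change of 0.32, and 6 rose and 3 fell with sgRNA1, at a median of 0.02. Of the 26 that rose with sgRNA3, 22 were among the 32 other induced genes. Of all genes tested, 3.84% rose and 5.25% fell with sgRNA3, and 1.69% rose and 4.31% fell with sgRNA1. Between the guides, 5 were higher with sgRNA3: ISG15 (log2 difference 0.71), IFI6 (0.74), IFI44L (0.86), USP18 (0.77) and IRF7 (0.64). A further 1 was lower, GBP2. Of all genes tested, 0.391% were higher and 0.187% lower. With any library left out, fewer of the 61 passed with sgRNA3, and fewest without one of the 4 libraries compared. Calls over all genes tested fell in the same way, so this drop is not particular to the list. The sgRNA1 count was 2 and 1 without sgRNA1 replicates 1 and 2, 1 without either LACZ replicate, and 5 and 4 without sgRNA3 replicates 1 and 2, while between the guides 1 passed without sgRNA3 replicate 1 and 0 without any of the other 5 libraries.
Ligands were scarcely present. Of 8 interferon genes only IFNE, an epithelial type I interferon, could be tested, at 2.83 and 2.85 TPM with sgRNA1 and 1.62 and 2.16 TPM with sgRNA3, against 2.74 and 3.22 TPM in LACZ, and it did not pass (limma adjusted p = 0.906 and 0.200). IFNB1 was at 0.33 TPM or less in every library and IFNL1 at 0.38 TPM or less. Of 6 receptor genes and 3 kinases, 0 passed in either comparison with LACZ, where 1 receptor and 1 kinase had an unadjusted limma p under 0.05 with sgRNA3 and 2 receptors and 0 kinases with sgRNA1.
Of 6 transcription factor genes, 1 rose and 1 fell with sgRNA3, and 0 rose and 2 fell with sgRNA1. STAT2 did not pass, with log2 changes of -0.25 with sgRNA1 and -0.11 with sgRNA3 (limma adjusted p = 0.146 and 0.454), nor did IRF9, with -0.39 and 0.17 (adjusted p = 0.0990 and 0.363). The factors that passed were named after their values were seen. IRF7, which amplifies interferon production, rose with sgRNA3 (0.37, limma adjusted p = 0.0363). IRF1, a factor of the interferon-gamma response, fell with sgRNA1 (-0.81) and sgRNA3 (-0.67). IRF3, which switches on interferon genes after viral RNA is sensed, fell with sgRNA1 (-0.26, limma adjusted p = 0.0463). Leaving out any library ended the calls of IRF7 and IRF3 (up to 0.154 and 0.175), and leaving out any library of the groups compared ended those of IRF1 (up to 0.112). Of 8 nucleic acid sensing genes, 1 rose with sgRNA3 and 0 passed with sgRNA1, where 3 had an unadjusted limma p under 0.05. It was IFIH1, the RNA sensor MDA5 (0.64, adjusted p = 0.0186), lost without either sgRNA3 or either LACZ library (up to 0.103).
Of 32 other interferon-induced genes, 22 rose and 1 fell with sgRNA3, and 5 rose and 0 fell with sgRNA1. GBP1, a guanylate-binding protein, was among those that rose with sgRNA3 (log2 change 0.50, limma adjusted p = 0.0259). With sgRNA1 GBP1 did not pass (0.25, adjusted p = 0.13). The gene that fell with sgRNA3 was GBP2, a guanylate-binding protein of the interferon-gamma response (-0.44, limma adjusted p = 0.0109; lost without either sgRNA3 or either LACZ library, up to 0.0766), and it was also the gene lower with sgRNA3 than with sgRNA1 (-0.47). ISG15, a ubiquitin-like modifier, was at 687 and 719 TPM with sgRNA1 and 1134 and 1165 TPM with sgRNA3, against 617 and 623 TPM in LACZ (log2 changes 0.18 and 0.89, limma adjusted p = 0.0513 and 0.00116). IFI6, which protects against flaviviruses, changed by 0.42 and 1.16, IFI44L by 0.74 and 1.61, IFI27 by 0.21 and 0.45, the zinc-finger antiviral protein ZC3HAV1 by 0.79 and 1.001, and the helicase DDX60 by 0.49 and 0.98, all 5 passing with each guide. IFI35 (0.22 and 0.665) and the nucleotide hydrolase SAMHD1 (0.32 and 0.72) passed with sgRNA3 only, and the difference between the guides did not pass for either (limma adjusted p = 0.0816 and 0.114). IFI44 was at 83.59 and 79.60 TPM with sgRNA1 and 110.34 and 120.64 TPM with sgRNA3, against 72.97 and 76.39 TPM in LACZ. Its log2 change of 0.62 passed with sgRNA3 (limma adjusted p = 0.0101), a call lost without sgRNA3 replicate 2, LACZ replicate 1 or LACZ replicate 2 (up to 0.0741), and that of 0.13 with sgRNA1 did not (adjusted p = 0.306). Leaving out single libraries ended the sgRNA3 calls of DDX60 (without sgRNA3 replicate 1 or 2), IFI35 (without these or LACZ replicate 2) and SAMHD1 (without the same 3), at adjusted p up to 0.0704. With sgRNA1, leaving out any library ended the calls of IFI6, IFI27 and DDX60, and further calls were lost: ZC3HAV1 without either sgRNA1 or either LACZ library, and IFI44L without these or sgRNA3 replicate 2 (up to 0.130).
ABCE1, a ribosome recycling factor listed with the OAS pathway, rose with both guides, with log2 changes of 0.81 and 1.239 (limma adjusted p = 0.00362 and 0.00128), and passed with each library left out. Of 3 feedback inhibitors, 1 rose and 1 fell with sgRNA3, and 0 rose and 1 fell with sgRNA1. SOCS1, which blocks JAK kinases, did not pass, at 5.22 and 5.53 TPM with sgRNA1 and 3.63 and 3.78 TPM with sgRNA3, against 3.33 and 2.20 TPM in LACZ (log2 changes 0.78 and 0.34, limma adjusted p = 0.0889 and 0.337). USP18, which removes ISG15 and dampens the receptor, rose with sgRNA3 (0.84, limma adjusted p = 0.00969; lost without sgRNA3 replicate 1, sgRNA3 replicate 2 or LACZ replicate 1, up to 0.0720) and was at 0.07 with sgRNA1. SOCS3, which blocks JAK signalling, fell with sgRNA1 (-0.85, adjusted p = 0.00564) and with sgRNA3 (-0.60, adjusted p = 0.0129). These calls were lost without LACZ replicate 1 or 2, without sgRNA1 replicate 2 for the first (up to 0.0662) and without sgRNA3 replicate 1 or 2 for the second (up to 0.0848).

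**Figure D5:**
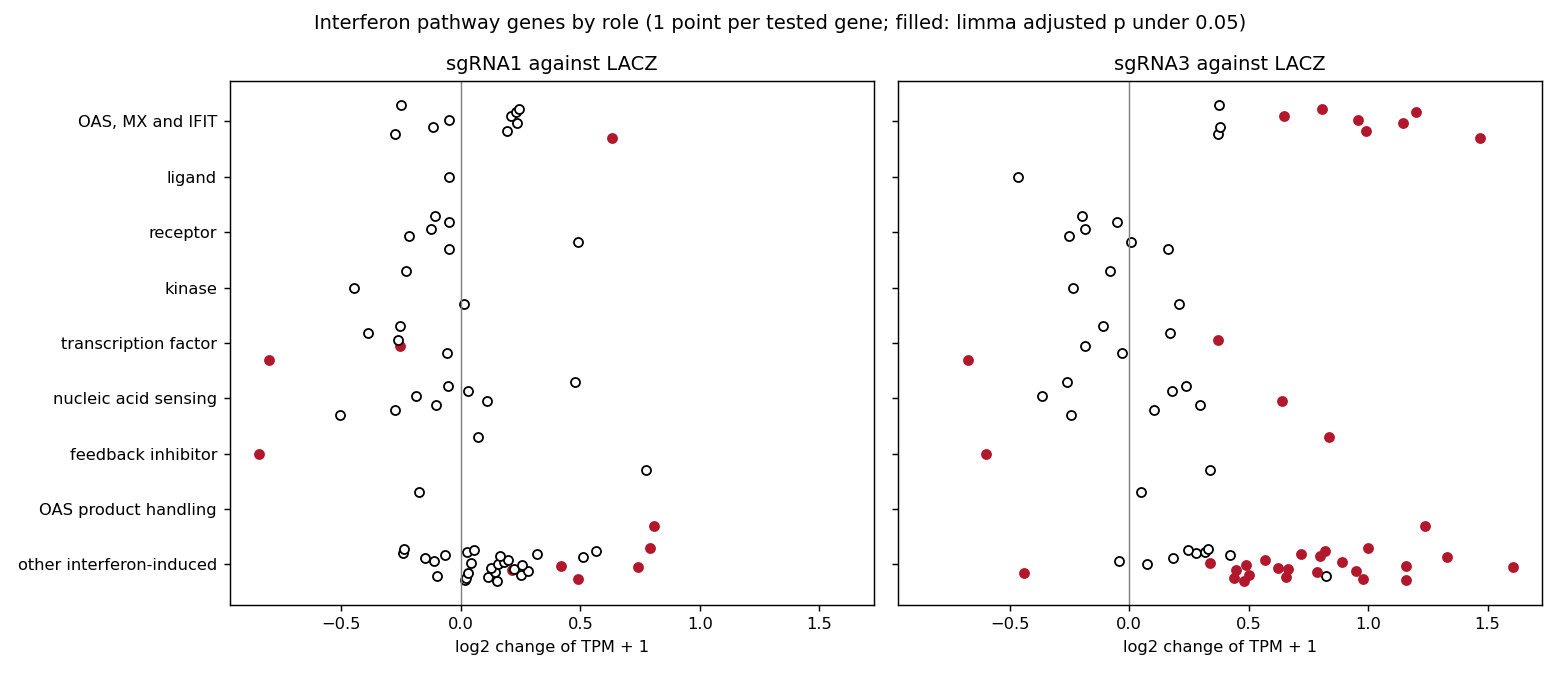
Log2 change of TPM + 1 for the 10 genes (top row) and for the tested genes of the interferon pathway by role, in sgRNA1 against LACZ and sgRNA3 against LACZ; 1 point per gene, filled where the limma adjusted p was under 0.05. With sgRNA3 the filled points gather right of 0 in the top and bottom rows, and no ligand, receptor or kinase is filled in either panel.

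The genes whose pattern over the 6 libraries was nearest to each family were looked up among 10935 named genes with a mean of at least 5 TPM. Nearness was the root mean square difference of the log2(TPM + 1) profiles, each centred on its own mean. For the OAS family these were PTX3 (0.06), a secreted pattern recognition protein, ISG15 (0.06) and USP18 (0.07). For the MX family they were DHRS9 (0.07), FGFBP1 (0.08), a carrier of fibroblast growth factors, and USP18 (0.11). For the IFIT family they were LAMA3 (0.05), a laminin chain, SAMD9 (0.05) and POU2F2 (0.06). Of these 9 entries, 4 were in the interferon list. LAMA3, as an example from outside it, averaged 188 TPM with sgRNA1 and 304 TPM with sgRNA3, against 179 TPM in LACZ. With 6 libraries in 3 groups, such likeness describes the group pattern and little more.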

How the data were processed

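Tools in the submitters' processing notes are RSEM 1.3.1, DESeq2 1.24.0 and HISAT2 2.1.0, without their roles, and the build is GRCh38. The authors deposited a single table of TPM values for 59962 genes. By guide and replicate number, columns H1 were taken as the libraries titled S1, and columns H3 as those titled S3, and 3 columns of group values were not used. Since TPM values are not counts, limma 3.58.1 in R 4.3.3 was fitted to log2(TPM + 1) of all 3 groups with an intensity trend, for 16610 genes with at least 2 libraries at 1 TPM or more (3 residual and 2.34 prior degrees of freedom). Adjusted p-values are two-sided, by Benjamini-Hochberg over all genes tested in a comparison, with a threshold of 0.05. The fit was also run on simulated data, but no outcome is given here, so the results do not rest on that run. Positions are from GENCODE 29, promoter sequences from RefSeq.

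The 10 genes and the lists were chosen with earlier results of these data known. Always named were the 10 genes, SULF2, ABCE1, STAT2, IRF9 and ISG15, the 12 pathway genes with the smallest p among those that passed against LACZ, and the 3 nearest profiles per family. Some genes of the pathway are not reported here and were left out of its counts. Alternatives were pseudocounts of 0.1 and 5, no filter or 5 TPM, median-of-ratios scaling, quantile normalization, no trend and only the groups compared. Others were a replicate block and leaving out each library. Where the last left 1 library in a group, its spread was taken from the others. Leaving out a library of the group not compared left the log2 changes as they were, so only the test differed.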

Additional observations from a re-analysis of the deposited data

Results flagged for a closer look

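Results were picked out where the effects of the guides against the same LACZ libraries differed. For 5 genes the direct test passed, with log2 differences (sgRNA3 against sgRNA1) of 0.97 for OAS2, 0.57 for OAS3, 0.91 for MX1, 0.84 for IFIT1 and 0.80 for IFIT3. Of all genes tested, 0.391% were higher in this way. All of these calls were lost with any library left out. In IFIT2 and IFIT5 both sgRNA1 libraries lay below LACZ (log2 changes -0.28 and -0.12) and both sgRNA3 libraries above it. Of all genes tested, 35.2% lay below LACZ with sgRNA1 and 24.8% above it with sgRNA3, and the share with both is not given here. For IFIT2 and IFIT5 the direct test of the difference did not pass (limma adjusted p = 0.101 and 0.0997).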

How the results depend on the processing

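Against LACZ, the number of the 10 genes that rose with sgRNA3 stayed at 6 to 8 under the settings that kept all libraries, and at 4 to 6 with a library left out (4 without LACZ replicate 2). With sgRNA1 it was 4 under median-of-ratios scaling, which added OAS3, MX1 and IFIT3, 0 without the variance trend (2 at an unadjusted limma p under 0.05), and 0 to 1 with a library left out. Between the guides it was 3 under quantile normalization and 0 without the filter, without the trend, with only the groups compared and with the replicate block. Under these settings 9 or 10 kept an unadjusted limma p under 0.05, which 2550 of all 16610 genes tested had as reported. The calls between the guides also ended with any library left out. Over all genes tested, the calls between the guides fell in the same way, from 96 as reported. Of the pathway list, sgRNA1 gave 15 calls under median-of-ratios scaling, 3 without the trend, 4 with only the groups compared, 3 with the replicate block and 1 to 5 with a library left out. With sgRNA3 it gave 16 without the trend and 6 to 23 with a library left out. Between the guides it gave 0 without the filter, without the trend, with only the groups compared and with the block (37 to 40 at an unadjusted limma p under 0.05), and 0 to 1 with a library left out.

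Signs turned only for small changes that had not passed. MX2 with sgRNA1 was 0.032 under median-of-ratios scaling, 0.068 under quantile normalization, and -0.160 to 0.064 with a library left out. IFIT5 with sgRNA1 was 0.001 under quantile normalization. With a library left out, USP18 with sgRNA1 was -0.005 to 0.147, and SULF2 between the guides -0.375 to 0.093. The cause was not tested.

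The labels do not say whether same-numbered libraries share more than a number. Their deviations from the group means correlated at -0.03 to 0.01 across 16610 genes, which does not exclude a batch acting on some genes. With the replicate block the calls among the 10 genes numbered 1 with sgRNA1, 6 with sgRNA3 and 0 between the guides. Over all genes they numbered 377, 561 and 0, against 997, 1509 and 96 without it. The fit without the block had only 3 residual degrees of freedom, so this drop does not show whether the numbers mark a pairing. Leaving out any library also lowered the calls over all genes in each comparison. Scaling moved the split of all calls: of those against LACZ with sgRNA1, 28.2% were higher as reported, 51.3% under median-of-ratios scaling and 44.1% under quantile normalization. With sgRNA3 the shares were 42.2%, 56.9% and 49.0%, and between the guides 67.7%, 56.3% and 55.6%. TPM values keep no depth, so what depth limits is unknown.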
